A study of Homo sapiens with 3 samples.

Results

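The expression of 10 lipoprotein genes, APOA1, APOA2, APOA4, APOB, APOC1, APOC3, APOE, APOH, APOM and MTTP, was examined in Hep3B, a cell line from a hepatocellular carcinoma, the common cancer of human liver. The genes were taken by name, through their Ensembl identifiers, from a table of 19869 genes, and all 10 had a row and a mean of at least 1 FPKM, the authors' measure of fragments per kilobase of a transcript, scaled to the size of the library. The table holds 3 libraries of RNA sequencing, 1 in each of 3 groups. The HKR3 library came from cells transfected with pcDNA3.1-HKR3, a plasmid that encodes the zinc finger protein HKR3, or ZBTB48, known to bind telomeric repeats. The library labelled siTERT came from cells that received small interfering RNA to TERT, the catalytic subunit of telomerase. The NT control carries the title NT-Empty and the treatment label Fugene, the name of the transfection reagent that all groups received, and the sources used here do not give which plasmid or RNA it received. In all groups the medium was changed 6 h after transfection. The sources used here do not give the share of cells that took up plasmid or RNA, and each library averages over all cells.

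Apolipoproteins are the protein coat of lipoproteins, the particles that carry lipids in blood, and in humans most of them are made by the liver, some also by the small intestine. Apolipoprotein B is the large scaffold of very low-density and low-density lipoproteins, and MTTP, the microsomal triglyceride transfer protein, loads it with lipid while it is made. Apolipoproteins A-I and A-II form high-density lipoprotein (HDL), and the small apolipoproteins C and apolipoprotein E move between particles and steer lipolysis and uptake. Many of these genes are driven by the liver-enriched factors HNF4, HNF1 and C/EBP and by nuclear receptors.

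The cells bore the markers of their origin. All 6 hepatocyte markers examined were expressed, with ALB (albumin) at 2703 FPKM in the HKR3 library, 3313 FPKM in the library labelled siTERT and 3317 FPKM in the NT library. Of 5 enterocyte markers 3 reached a mean of 1 FPKM, FABP2 was at or near 0, and the 5 summed to 57.8, 96.1 and 84.4 FPKM in the same libraries. Of 4 immune markers 3 reached that mean, and the 4 summed to 243 FPKM in the HKR3 library, 441 FPKM in the library labelled siTERT and 431 FPKM in the NT library, most of it LYZ, while PTPRC, which defines leukocytes, was listed at 0 throughout. Of 3 fibroblast markers 0 reached a mean of 1 FPKM, and the endothelial markers CDH5 and VWF were listed at 0. ZBTB48 was at 2842 FPKM in the HKR3 library, against 4.91 FPKM in the NT library. TERT was at 5.37 FPKM in the library labelled siTERT, against 4.69 FPKM in the NT library, so it was not lower there and the directions given for this library belong to its label. The sum of FPKM over all genes was 535516 in the HKR3 library, 579410 in the library labelled siTERT and 596536 in the NT library. The size of the libraries, estimated from the FPKM worth of 1 fragment in weakly expressed genes, was 1.13e+07, 1.15e+07 and 1.04e+07 fragments in that order. With 1 library per group no difference has a replicate check, and no p-value or error between replicates can be given.

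The regions before the start of 4 of the genes are shown, 3 because their genes were the members lower in both treated libraries than in the NT library, and that of MTTP because it was the 1 window with the nuclear receptor element. The sequences are the 250 bases before a RefSeq start (build GRCh38.p14), written 5′ to 3′ on the strand of the gene, and capitals mark the motif matches.
APOA2, chr1:161223629-161223878, minus strand: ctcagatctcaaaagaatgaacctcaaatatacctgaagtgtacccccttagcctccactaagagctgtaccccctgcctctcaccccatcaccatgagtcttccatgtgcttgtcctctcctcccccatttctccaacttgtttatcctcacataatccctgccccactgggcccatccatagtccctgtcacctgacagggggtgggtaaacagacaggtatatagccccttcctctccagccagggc
APOH, chr17:66229416-66229665, minus strand: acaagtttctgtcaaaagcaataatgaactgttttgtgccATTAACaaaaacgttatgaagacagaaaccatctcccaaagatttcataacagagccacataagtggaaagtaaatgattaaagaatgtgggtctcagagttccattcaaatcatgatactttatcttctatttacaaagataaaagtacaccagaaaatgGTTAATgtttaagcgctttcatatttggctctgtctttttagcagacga
APOM, chr6:31655644-31655893, plus strand: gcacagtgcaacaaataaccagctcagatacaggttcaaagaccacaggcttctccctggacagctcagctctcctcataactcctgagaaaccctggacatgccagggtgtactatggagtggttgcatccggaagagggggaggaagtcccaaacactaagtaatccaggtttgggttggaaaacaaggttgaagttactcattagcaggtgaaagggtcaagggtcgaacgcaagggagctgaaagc
MTTP, chr4:99574574-99574823, plus strand: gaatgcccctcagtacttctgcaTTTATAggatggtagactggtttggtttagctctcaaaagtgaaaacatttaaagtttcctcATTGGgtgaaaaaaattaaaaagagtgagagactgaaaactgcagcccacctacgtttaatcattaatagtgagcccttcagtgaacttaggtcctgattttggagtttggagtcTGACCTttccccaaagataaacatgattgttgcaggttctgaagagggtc
Windows of 300 bases, with 50 bases after the start, were at hand for 7 of the 10 genes. For APOA1, APOB and APOC3 there was none, so their promoters were not searched. They were searched on both strands for AGGTCA, the core element of nuclear receptors, CAAAGTCCA for HNF4, GTTAAT for HNF1, TTGCGCAA for C/EBP, TGANTCA for AP-1, TATAAA for the TATA box, CCAAT for NF-Y and TTAGGG, the unit of telomeric repeats that ZBTB48 binds. The APOH window held GTTAAT at position -210 on the opposite strand and at -49 on its own strand, and TGANTCA at 24 bases after the start, outside the printed stretch. GTTAAT occurs in 6.88% of all 35116 RefSeq windows of this length, and TGANTCA in 7.71%. The MTTP window shown, 1 of 2 for this gene, held AGGTCA at -50, the TATA box letters at -227 and CCAAT at -165, all on the opposite strand, and these letters occur in 13.8%, 11.5% and 34.6% of all windows. CCAAT was also found in APOE windows. The APOA2 and APOM windows held 0 of the 8 motifs, and TTAGGG, present in 9.05% of all windows, was in 0 of the 7 members' windows. CAAAGTCCA and TTGCGCAA, in 0.384% and 0.151% of all windows, were also in 0 of them.

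The genes differed widely in level per length. APOA2 was the highest, at 1444 FPKM in the HKR3 library, 2021 FPKM in the library labelled siTERT and 2388 FPKM in the NT library, where it ranked at number 25 of all genes. APOA1, APOE and APOC1 followed, between 565 and 1575 FPKM over the 3 libraries. APOB, APOH, MTTP, APOC3 and APOM lay between 17.1 and 164 FPKM over the 3 libraries. APOA4, in humans mainly a product of the small intestine, was near 1 FPKM. Together the 10 genes took 0.784% of the FPKM sum in the HKR3 library, 1.08% in the library labelled siTERT and 1.07% in the NT library. Their summed level was 4201 FPKM in the HKR3 library, 6275 FPKM in the library labelled siTERT and 6376 FPKM in the NT library.

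**Figure D1:**
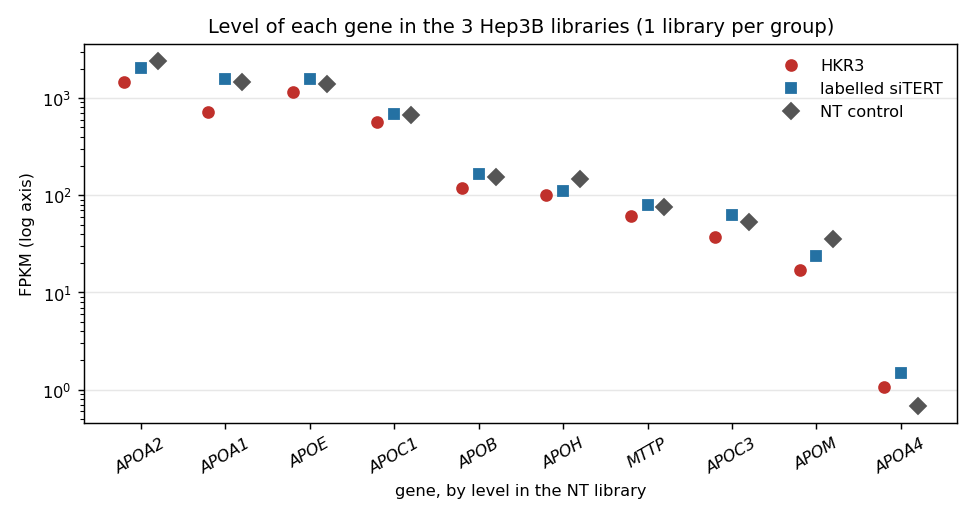
FPKM (log axis) of each gene in the HKR3 library (circles), the library labelled siTERT (squares) and the NT library (diamonds), with 1 library per group and no error bars. For every gene but APOA4 the HKR3 library has the lowest value of the 3.

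The first comparison asked how these genes stood in cells overexpressing HKR3. Of the 10 genes 9 were lower in the HKR3 library than in the NT library, with log2 differences from -1.03 for APOA1 to -0.25 for APOC1, and APOA4 was the exception. Below 0 lay 51.4% of the 10974 genes that averaged 1 FPKM or more, and 64.2% of the 3468 genes that averaged 25 FPKM or more, as the 9 genes did. The median of the 10 genes was -0.43, against -0.02 for all genes and -0.17 for genes of at least 25 FPKM. After each library was scaled to the same sum of FPKM (TPM), it was -0.27, against 0.12 for all genes. All differences are on the log2(FPKM + 1) scale, that is with a pseudocount of 1. In bulk RNA, fewer cells that express a gene and less RNA of it per cell cannot be told apart. The hepatocyte markers summed to 7022 FPKM in the HKR3 library, against 9708 FPKM in the NT library, so they were lower along with the lipoprotein genes. The enterocyte and immune sums were lower too. The enterocyte sum was mostly VIL1 and CDX2. SI, at 1.73 FPKM against 1.28 FPKM in the NT library, and LGALS4, at 0.708 against 0.265 FPKM, were higher in the HKR3 library. The part of these markers in the result was not tested.

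Among the HDL proteins the differences were the largest. APOA1, which encodes the main protein of HDL, was at 713 FPKM in the HKR3 library, 1575 FPKM in the library labelled siTERT and 1461 FPKM in the NT library. The HKR3 library stood apart, at 0.488 times the NT level, while the other libraries lay close together. On the log2(FPKM + 1) scale APOA1 was the 1 gene of the 10 that reached the size rule of 2-fold, which 2.52% of all genes reached in the lower direction and 8.05% in either. Of all 10974 genes, 247 had a difference as low or lower. After scaling to TPM, which moved the median of all genes by 0.14, the difference of APOA1 was -0.88 and 0 of the 10 genes reached 2-fold. The same scaling turned the split of all genes past 2-fold, 606 higher and 277 lower, into 991 higher and 208 lower, or 82.7% higher in place of 68.6%. APOA1 lay within the size rule only by a small margin, and APOM just outside it.

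APOM, the HDL protein that carries sphingosine-1-phosphate, was at 17.1 FPKM in the HKR3 library, 23.9 FPKM in the library labelled siTERT and 35.2 FPKM in the NT library. Its log2 difference between the HKR3 and NT libraries was -0.997 with the pseudocount of 1 and -1.03 with a pseudocount of 0.1, which put it past 2-fold. The plain ratio of APOM was 0.487, next to 0.488 for APOA1, so the pseudocount decided which of them passed. APOM and BAG6, a gene on the opposite strand, share 136 exon bases in GENCODE v29, and BAG6 was at 51.6 FPKM in the HKR3 library, against 63.0 FPKM in the NT library. The sources used here do not give whether counting used strand, so reads of the shared stretch cannot be told apart. In the same annotation APOC1 shares 532 exon bases with AC011481.3 on its own strand, APOA4 635 with AP006216.3, APOB 169 with AC010872.1 and APOA1 123 with APOA1-AS, all 3 on the opposite strand, and MTTP 19 with TRMT10A and 83 with AC083902.1, also opposite. The partners other than BAG6 and TRMT10A were not analysed here. APOA2, the other major HDL protein, had 0.605 times the NT level in the HKR3 library, or -0.73 as a log2 difference. APOA1, APOA2 and APOM were the 3 genes of the 10 at least 1.5-fold lower, where 12.7% of all genes were. At this bound 0 of the 10 were higher, against 15.3% of all genes.

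The genes of the particles that hold apolipoprotein B differed less. APOB was at 119 FPKM in the HKR3 library, 164 FPKM in the library labelled siTERT and 154 FPKM in the NT library. MTTP, its lipid-loading partner, was at 60.7, 79.0 and 75.8 FPKM in the same libraries. Both were lowest in the HKR3 library, at 0.771 times the NT level for APOB and 0.801 times for MTTP. The ratio of APOB to MTTP within a library does not depend on how libraries are scaled, and it was 1.96 in the HKR3 library, 2.08 in the library labelled siTERT and 2.03 in the NT library. The ratio of APOA1 to APOB was 6.00 in the HKR3 library, 9.60 in the library labelled siTERT and 9.49 in the NT library. That ratio was thus lowest in the HKR3 library, while the ratio of APOB to MTTP was close in all 3.

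The exchangeable apolipoproteins differed among themselves. APOE, a ligand of the receptors that take up lipoprotein remnants, was at 1144 FPKM in the HKR3 library, 1556 FPKM in the library labelled siTERT and 1389 FPKM in the NT library. APOC1, an inhibitor of cholesteryl ester transfer protein, was at 565, 683 and 672 FPKM in the same libraries. These were the smallest differences between the HKR3 and NT libraries among the 9 lower genes, -0.28 for APOE and -0.25 for APOC1, and 30.6% and 32.6% of all genes had a difference as low or lower. After scaling to TPM they were -0.12 for APOE and -0.10 for APOC1, that of MTTP was -0.16 and that of APOB -0.22. APOC3, which inhibits lipoprotein lipase, was at 37.5 FPKM in the HKR3 library, 62.9 FPKM in the library labelled siTERT and 52.7 FPKM in the NT library. Its level in the HKR3 library was 0.711 times that in the NT library, and the library labelled siTERT was the highest of the 3. APOH, beta-2-glycoprotein I, a phospholipid-binding plasma protein, was at 99.5, 110 and 148 FPKM in the HKR3, siTERT-labelled and NT libraries. Here the NT library stood above the other pair, and the difference between the HKR3 and NT libraries was -0.57.

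APOA4 was at 1.08 FPKM in the HKR3 library, 1.497 FPKM in the library labelled siTERT and 0.679 FPKM in the NT library. These values correspond to about 18, 25 and 10 fragments. The ratio of the HKR3 to the NT library on those fragments was 1.66, with an exact 95% binomial interval from 0.727 to 4.03, so no difference was detectable at this depth. For the 9 other genes the intervals of this ratio all lay below 1. The interval of APOC3 was from 0.596 to 0.848, and that of APOM from 0.392 to 0.600. APOM rested on the fewest fragments of the 9, about 137 in the HKR3 library and 260 in the NT library. After scaling to TPM the intervals of the 9 genes still lay below 1, and that of APOC1 reached 0.999. These intervals cover counting error only, rest on estimated fragments and say nothing of the spread between cultures.

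**Figure D2:**
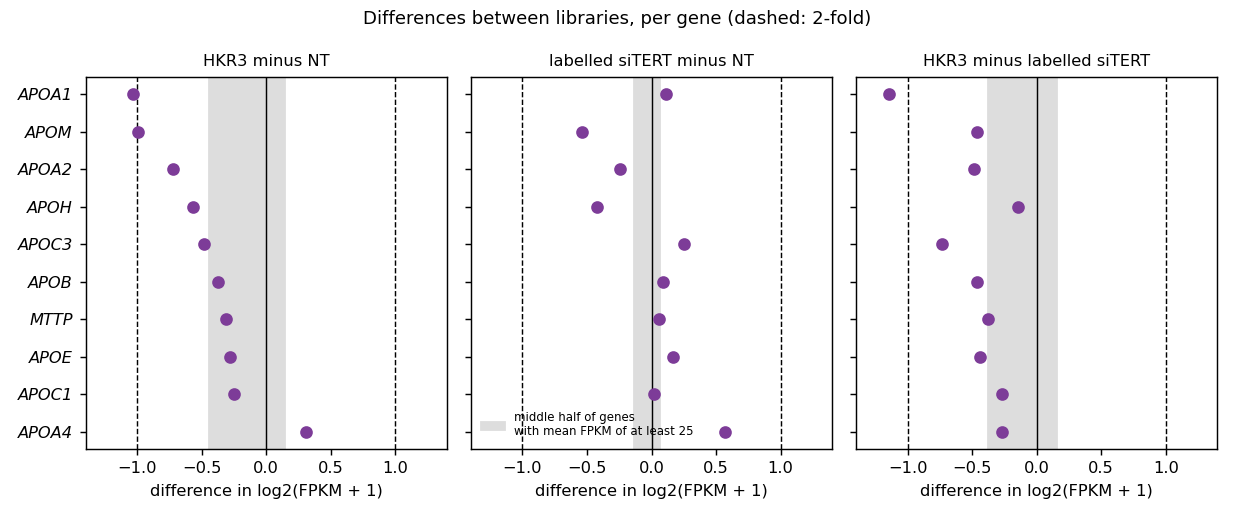
Difference in log2(FPKM + 1) of each gene between the HKR3 and NT libraries (left), the library labelled siTERT and the NT library (middle) and the HKR3 library and the library labelled siTERT (right). Shading spans the lower to the upper quartile of the 3468 genes averaging 25 FPKM or more, and dashed lines mark 2-fold. APOA1 lies past the lower line in the left and right panels, and all 10 genes lie below 0 in the right panel.

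With the library labelled siTERT, in which TERT was no lower, the 10 genes went both ways around a median near 0. Their median log2 difference was 0.07, against -0.01 for all genes. APOA1, APOB, APOC1 and MTTP lay within the quartiles of all genes, -0.14 and 0.12, and the other 6 outside them. Of the 10 genes 0 reached 2-fold, as 0.483% of all genes did. Of the 10 genes 7 were above 0, against 47.4% of all genes. The 3 genes below 0, as 52.6% of all genes were, were APOM, APOH and APOA2, and these were below 0 in both treated libraries, as 35.1% of all genes were. APOM had 0.680 times the NT level and a log2 difference of -0.54, and 187 of the 10974 genes were as low or lower. APOH had 0.746 times the NT level and a difference of -0.42, with 378 genes as low or lower. APOA2 had a difference of -0.24. All 3 had their highest level in the NT library and their lowest in the HKR3 library, an order seen in 28.5% of all genes.

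On the other side, APOC3 was 0.25 and APOE 0.16 above the NT library on the log2 scale in the library labelled siTERT, and APOA1 0.11. The counting intervals of APOC1, at a ratio of 1.02 from 0.954 to 1.08, and of MTTP, at 1.04 from 0.953 to 1.14, included 1, so that for these no difference between the library labelled siTERT and the NT library was detectable at this depth. APOA4 had the largest difference in size, 0.57, and a ratio on fragments of 2.27 with an interval from 1.05 to 5.30. With a pseudocount of 0.1 its difference was 1.04 and past 2-fold. The level rests on few fragments in every library.

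Both treated libraries were set against the same NT library, so their differences are not independent of each other. The HKR3 library was therefore also compared with the library labelled siTERT, without the NT library. All 10 genes were lower in the HKR3 library. Their median was -0.45, against -0.01 for all genes and -0.13 for the genes of at least 25 FPKM. Below 0 lay 50.5% of all genes and 62% of those of at least 25 FPKM. APOA1 had 0.453 times the level of the library labelled siTERT, or -1.14 as a log2 difference, and 76 of the 10974 genes were as low or lower. It was the 1 gene of 10 at least 2-fold lower, where 1.38% of all genes were and 5.49% passed in either direction. APOC3 came next at 0.596 times, or -0.73, which with APOA1 made 2 of 10 at least 1.5-fold lower, against 9.71% of all genes, and APOH was the nearest to 0 at -0.15. Between them lay APOA2 at -0.48, APOB and APOM at -0.46 each, APOE at -0.44, MTTP at -0.37 and APOC1 and APOA4 at -0.27 each. For APOA4 the ratio on fragments was 0.730 with an interval from 0.375 to 1.39, so no difference was detectable at this depth. For the 9 other genes the intervals lay below 1, that of APOH from 0.838 to 0.974. After scaling to TPM the interval of APOH, from 0.907 to 1.05, included 1, and its log2 difference was -0.03. The HKR3 library was the highest of the 3 for 0 of the 10 genes. Of all genes, 25.3% had HKR3 first and the library labelled siTERT next, and 17.5% had HKR3 first and NT next. The order with the library labelled siTERT first, NT next and HKR3 last held for APOA1, APOB, APOC1, APOC3, APOE and MTTP, and for 16.2% of all genes.

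**Figure D3:**
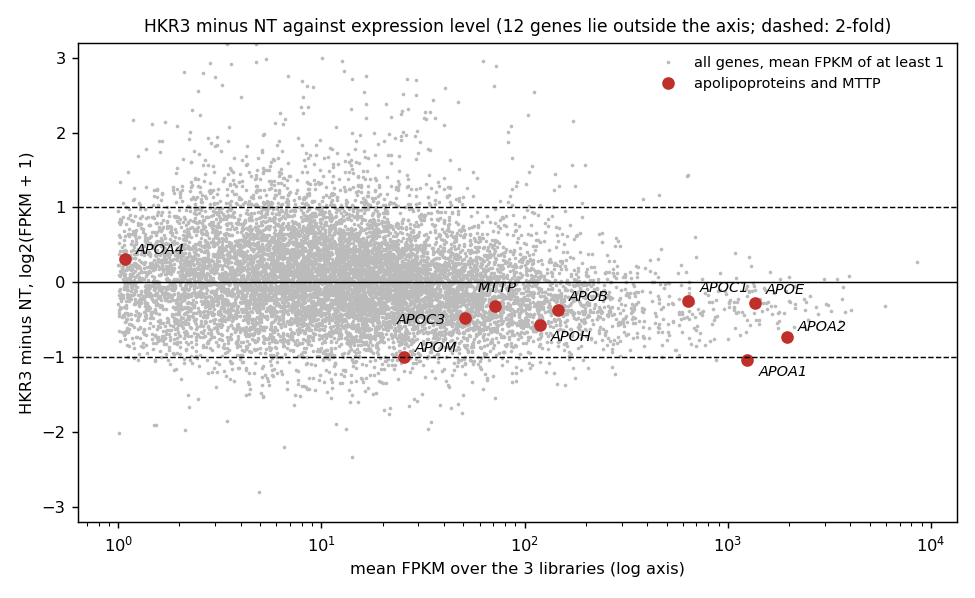
Difference between the HKR3 and NT libraries in log2(FPKM + 1) against the mean FPKM over the 3 libraries (log axis), for all genes averaging 1 FPKM or more (grey) and the 10 lipoprotein genes (red). Of the well expressed genes 64.2% lie below 0, and APOA1 is the lipoprotein gene farthest below.

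The mix of apolipoprotein transcripts within a library does not depend on library scaling. APOA1 and APOA2 together made up 51.4% of the summed level of the 10 genes in the HKR3 library, 57.3% in the library labelled siTERT and 60.4% in the NT library. APOA1 per APOA2 was 0.494 in the HKR3 library, 0.779 in the library labelled siTERT and 0.612 in the NT library. APOA1 per APOE was 0.623 in the HKR3 library, against 1.01 in the library labelled siTERT and 1.05 in the NT library. The HKR3 library thus had the lowest APOA1 relative to each of these genes. APOC3 per APOA1, neighbours on chromosome 11, was 0.0526 in the HKR3 library, 0.0399 in the library labelled siTERT and 0.0361 in the NT library. APOM per APOA1 was 0.0240 in the HKR3 library, 0.0152 in the library labelled siTERT and 0.0241 in the NT library. APOA1 and APOM thus stood in nearly the same proportion in the HKR3 and NT libraries. Without APOA1 and APOA2, the remaining 8 genes summed to 2044 FPKM in the HKR3 library, 2680 FPKM in the library labelled siTERT and 2527 FPKM in the NT library. APOE per APOC1, a pair of neighbouring genes on chromosome 19, was 2.03 in the HKR3 library, 2.28 in the library labelled siTERT and 2.07 in the NT library.

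Several members lie side by side in the genome, and their neighbours did not all share their direction. On chromosome 11 the RefSeq order is ZPR1, APOA5, APOA4, APOC3, APOA1, SIK3 and PAFAH1B2. SIK3, a salt-inducible kinase next to APOA1, was at 17.5 FPKM in the HKR3 library, 7.03 FPKM in the library labelled siTERT and 5.94 FPKM in the NT library, or a log2 difference of 1.42 between the HKR3 and NT libraries. APOA1 itself had -1.03, APOC3 -0.48 and PAFAH1B2 -0.21. APOA5, which promotes lipolysis of triglycerides in plasma, had a mean below 1 FPKM. In the APOE cluster on chromosome 19, TOMM40, a channel of the outer mitochondrial membrane, had -0.28, equal after rounding to APOE, and NECTIN2 had -0.03. Of the 16 measured neighbours of all members that are no apolipoproteins, up to 2 genes on each side, 11 were below 0 in the HKR3 library and the median was -0.15, and SIK3 was the 1 past 2-fold. Of all genes 51.4% were below 0, the median was -0.02 and 8.05% were past 2-fold in either direction.

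**Figure D4:**
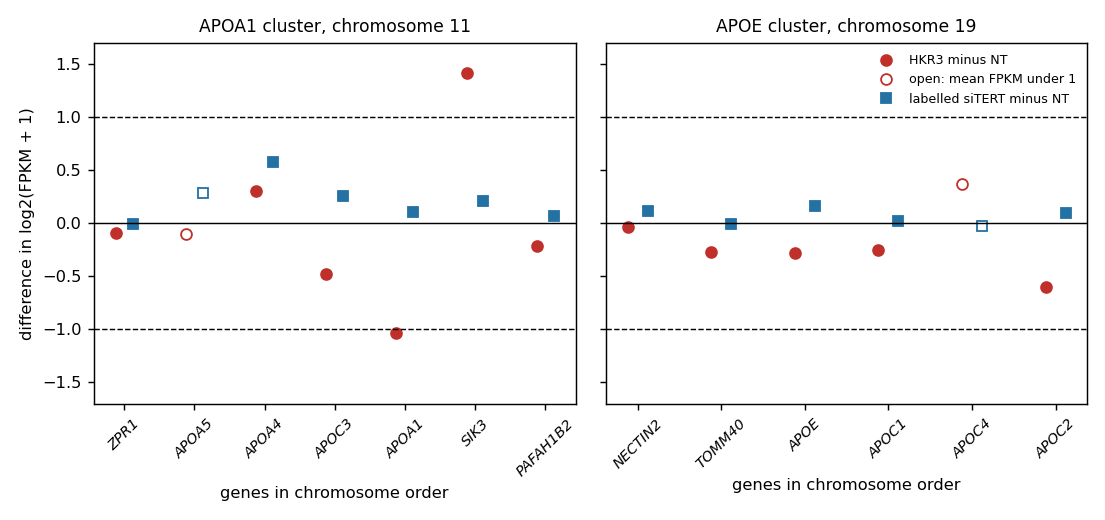
Difference in log2(FPKM + 1) from the NT library for the HKR3 library (circles) and the library labelled siTERT (squares), for the genes of the APOA1 cluster (left) and the APOE cluster (right) in chromosome order, with no distances drawn. Open symbols are genes with a mean under 1 FPKM, and dashed lines mark 2-fold. SIK3, at 1.42, and APOA1, at -1.03, are neighbours on opposite sides.

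Other genes of lipoprotein metabolism were taken as 6 lists with 87 genes in all, of which 71 were measured. In the HKR3 library 5 were at least 2-fold higher than in the NT library and 0 at least 2-fold lower, against 5.52% and 2.52% of all genes. Of 14 other apolipoproteins 6 were measured, 5 of them below 0, with a median of -0.49, against 51.4% and -0.02 for all genes. CLU, clusterin or apolipoprotein J, was at 275 FPKM in the HKR3 library, 390 FPKM in the library labelled siTERT and 383 FPKM in the NT library. APOO had -0.51 and APOL6, weakly expressed, -0.69. APOC2, the activator of lipoprotein lipase, is listed beside a read-through gene, APOC4-APOC2. How reads were divided between them is uncertain, and the sum of these entries and APOC4 was 298 FPKM in the HKR3 library, 446 FPKM in the library labelled siTERT and 530 FPKM in the NT library, a log2 difference of -0.83 between the HKR3 and NT libraries. APOC2 alone had -0.60.

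The genes that assemble and export particles with apolipoprotein B were centred near 0, with a median of 0.02 over 14 genes. Past 2-fold were 0 of them, against 8.05% of all genes. P4HB, protein disulfide isomerase, the partner subunit of MTTP, was at 507 FPKM in the HKR3 library, against 590 FPKM in the NT library. SEC24A, a coat protein of export vesicles, had 0.47, PLA2G12B, an endoplasmic reticulum protein of lipoprotein secretion, also 0.47, PCSK6, a proprotein convertase, -0.75 and PRAP1 -0.49. For HDL formation and remodelling 6 of 8 measured genes were below 0, with a median of -0.32, against 51.4% and -0.02 for all genes. ABCA1, which exports cholesterol to apolipoprotein A-I, was at 5.81 FPKM in the HKR3 library, 10.7 FPKM in the library labelled siTERT and 9.24 FPKM in the NT library. LCAT, the plasma enzyme that esterifies HDL cholesterol, was at 3.80, 3.74 and 1.995 FPKM, so it was higher in both treated libraries. PDZK1, a scaffold of the HDL receptor, had -0.62 and LIPG, endothelial lipase, 0.47.

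Receptors went both ways, with 8 of 12 measured genes below 0 in the HKR3 library and a median of -0.28, against 51.4% and -0.02 for all genes. MYLIP, a ubiquitin ligase that lowers lipoprotein uptake, was at 6.91 FPKM in the HKR3 library, 2.54 FPKM in the library labelled siTERT and 2.66 FPKM in the NT library, with a log2 difference of 1.11 between the HKR3 and NT libraries. MYLIP was thus highest in the HKR3 library, unlike the 10 lipoprotein genes. VLDLR, the very low-density lipoprotein receptor, had -0.86 and SDC1, a heparan sulfate proteoglycan that takes up remnants, -0.85. Among lipases and their regulators 5 of 8 genes were measured, 0 of them past 2-fold, against 8.05% of all genes. Their median of -0.12 turned to 0.03 after scaling to TPM. LMF1, a maturation factor of lipases, had 0.46, FURIN, a proprotein convertase, -0.16, and ANGPTL4, an inhibitor of lipoprotein lipase, -0.17.

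**Figure D5:**
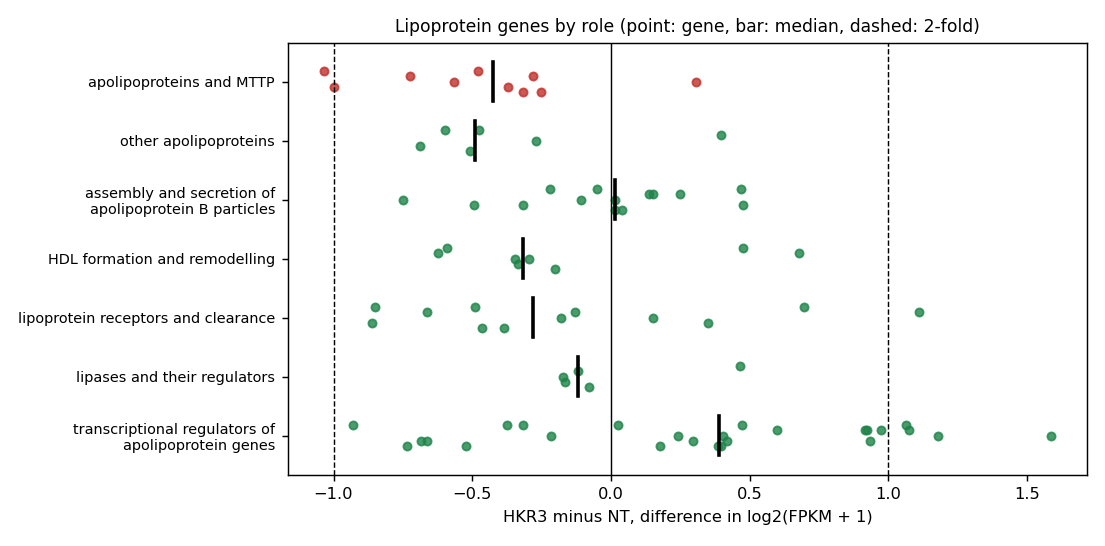
Difference in log2(FPKM + 1) between the HKR3 and NT libraries for the 10 lipoprotein genes (top) and 6 lists of related genes. Each point is a gene averaging 1 FPKM or more, black bars are medians and dashed lines mark 2-fold. The transcriptional regulators have a median of 0.39, the 10 lipoprotein genes -0.43.

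The regulators known to act on these genes did not share one direction. Of 26 measured factors 18 were above 0 in the HKR3 library, against 48.6% of all genes. Their median was 0.39, and 4 were at least 2-fold higher, against 5.52% of all genes. These were NR5A2, a nuclear receptor of the liver also called LRH-1, at 20.2 FPKM in the HKR3 library, 7.77 FPKM in the library labelled siTERT and 6.07 FPKM in the NT library, and the homeobox factor PROX1, the liver pioneer factor FOXA2 and the clock repressor NR1D1, with log2 differences of 1.18, 1.07 and 1.06. HNF4A, an activator of many apolipoprotein genes, was at 55.4 FPKM in the HKR3 library, 84.7 FPKM in the library labelled siTERT and 72.1 FPKM in the NT library. Its order over the libraries was that of APOA1 and of 16.2% of all genes, and a link between the 2 genes was not tested. CEBPA, the factor C/EBP alpha, was at 226 FPKM in the HKR3 library, 336 FPKM in the library labelled siTERT and 358 FPKM in the NT library, and PPARA, a fatty acid receptor that controls APOA1 and APOC3 in humans, at 2.45, 5.53 and 5.57 FPKM in the same libraries. In the library labelled siTERT, without a lower TERT, these 26 factors had a median of 0.05 and 0 past 2-fold, as 0.483% of all genes were. Of all 71 measured pathway genes 0 were past 2-fold in that library, and LMF1 at 0.82, LCAT at 0.66 and PRAP1 at 0.61 were the 3 past 1.5-fold, as 2.93% of all genes were. Between the HKR3 library and the library labelled siTERT, NR5A2 and MYLIP were at least 2-fold higher and PRAP1, at 3.81 FPKM against 9.29 FPKM, at least 2-fold lower.

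Outside these lists, the 5 genes of at least 100 FPKM whose pair of differences lay nearest to that of APOA1, among 911 candidates, were MSRB1, LYZ, RBP2, NHERF1 and CST3. LYZ, lysozyme, was at 210 FPKM in the HKR3 library, 391.9 FPKM in the library labelled siTERT and 392.5 FPKM in the NT library. RBP2, a retinol-binding protein best known from the intestine, was at 182, 341 and 359 FPKM. Distances to APOA1 on the plane of both differences lay between 0.14 for MSRB1 and 0.22 for CST3, over 3 libraries.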

How the data were processed

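RNA was extracted with TRIzol and sequenced as messenger RNA from strand-marking TruSeq libraries, per the labels' protocols. The authors deposited 1 table of FPKM per gene. The build hg19 and the tools Cuffdiff 2.2.1, Cufflinks and STAR 2.5.0 are named in the submitters' processing notes. The sources used here do not give settings, strand use or filters, nor whether library sizes were scaled further.

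Identifiers were matched to symbols for 19310 of 19869 genes, the 10 entries sharing a symbol were summed and 4 short noncoding RNAs left out. Differences of log2(FPKM + 1) were computed with pandas 2.3.3 for genes averaging 1 FPKM or more, and 2-fold replaced a test. As a check of the code only, the calculation was run on NT values of well expressed genes with large known changes put in. This says nothing of differences near 2-fold or of weakly expressed genes. Fragments were estimated as FPKM times the shortest coding transcript (GENCODE v29) times library size, from 63, 72 and 64 low genes within 25% of 1 fragment in the HKR3, siTERT-labelled and NT libraries, and intervals are exact binomial from scipy 1.17.1. If FPKM was scaled further, these are scaled sizes. Where transcripts are longer, intervals are narrower. Where the authors' FPKM rests on a shorter length than that transcript, fragments are fewer and intervals wider. No coordinates of the files were used; sequences come from RefSeq, build GRCh38.p14.

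The members, lists and rules were chosen with earlier results of these data known. Named genes were all members, ZBTB48 and TERT, up to 4 genes per list with the largest difference between the HKR3 and NT libraries, up to 2 neighbours on each side and the 5 nearest patterns. Those nearest to APOA4 are left out, since its differences rest on few fragments and on the pseudocount. The cell type markers and BAG6, HNF4A, CEBPA, PPARA, P4HB and APOC4-APOC2 fall outside it and were chosen with their values in view, as were the genes of the closing observations. Some genes that the rule names are not reported here. Alternatives were other pseudocounts, filters, scalings and a 1.5-fold rule.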

Additional observations from a re-analysis of the deposited data

How the results depend on the processing

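All 30 differences of the 10 genes, over 3 comparisons, kept their sign after scaling to TPM and after centring on the median, the alternatives that can turn it. Other pseudocounts, filters and the size rule cannot turn a gene's sign. Scaling to TPM moved the median of the 10 genes for HKR3 with NT to -0.27, against -0.43. Counts past the size rule moved more, and the comparisons stand in the order HKR3 with NT, siTERT-labelled with NT, HKR3 with siTERT-labelled. The number of the 10 genes past it was 1, 0 and 1. For HKR3 with NT this became 2 with a pseudocount of 0.1, 0 after scaling to TPM and 3 with a 1.5-fold rule, for siTERT-labelled with NT 1 with a pseudocount of 0.1, and for HKR3 with siTERT-labelled 2 with a 1.5-fold rule. Genes past the rule, 883, 53 and 602, became 1362, 160 and 969 at a pseudocount of 0.1 and 331, 13 and 203 at 5. They were 3068, 322 and 2481 under a 1.5-fold rule, and 198, 6 and 119 with a mean of at least 25 FPKM, an alternative chosen after seeing the data. With a mean of at least 5 FPKM, siTERT-labelled with NT gave 22. Pathway genes past it, 5, 0 and 3, became 24, 3 and 16 with a 1.5-fold rule. For HKR3 with NT they were 9 at a pseudocount of 0.1, 1 at 5, 9 after scaling to TPM and 1 with a mean of at least 25 FPKM. For HKR3 with siTERT-labelled they were 0 with a pseudocount of 5, 6 after scaling to TPM and 0 with a mean of at least 25 FPKM. For all of these the cause was not tested, beyond fewer genes being tested under stricter filters. No paired analysis was possible because each group holds 1 library, and for the same reason no replicate could be left out. Depth limits APOA4, which rests on few fragments.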

Other observations

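APOBEC1, the enzyme that edits apolipoprotein B transcripts in the human small intestine, was listed at 0 in all 3 libraries. VIL1 and CDX2, 2 of the 5 enterocyte markers, were expressed in this liver-derived line. CDX2, an intestinal transcription factor, was at 21.2 FPKM in the HKR3 library, 34.9 FPKM in the library labelled siTERT and 27.7 FPKM in the NT library, while FABP2, a fatty acid carrier of enterocytes, was below 0.1 FPKM in all of them. LPL and GPIHBP1, the lipase of capillaries and its anchor, were listed at 0 in all 3 libraries.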
